A study of Mus musculus with 36 samples.

Results

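The genes described here encode the proteasome of the mouse lung. They were taken as all probe sets of the array whose platform annotation gives 1 gene symbol that starts with Psma, Psmb, Psmc, Psmd or Psme followed by a digit, and the rule found 91 probe sets of 44 genes among 45037 probe sets tested. All 91 were tested, since no filter on low values was applied. Of the 44 genes, 21 had 1 probe set and 23 had several, with 8 for Psmd11. The symbol rule also caught Psmc3ip and Psme3ip1, named for proteins that bind a subunit and are not subunits themselves, and it left out 1 probe set that carries a second symbol beside Psme2.

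Lungs came from male mice of 7 to 13 weeks that breathed filtered air or 0.3 ppm ozone without a break for 6, 24 or 48 hr, and the left lung of each mouse was frozen and hybridized to 1 array. There were 3 genotypes: wild-type (WT) mice, which were B6129SF1/J hybrids, Notch3-/- mice and Notch4-/- mice, each knockout from a stock of its own. The 12 groups of genotype and exposure held 3 mice each, with 1 air group for each genotype against which all of its ozone times were compared. Each knockout line carries its deletion in every cell and differs from WT mice in strain background as well, so that the effects of the deletion and of the background cannot be told apart. The arrays measure whole lung, in which fewer cells of a type and less RNA per cell cannot be told apart either.

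The deposited values were log2 levels centred so that the 36 arrays of every probe set have a median of 0. A level is therefore given as the distance from that median, and levels of different genes cannot be compared, nor could the presence of lung cell types be checked. A difference of 1 on this scale is a doubling of the signal. Notch3 probe set 1421965_s_at lay between -4.51 and -3.13 in the 12 Notch3-/- arrays and between -0.53 and 0.60 in the others. Notch4 probe set 1449146_at lay between -4.31 and -3.42 in 10 Notch4-/- arrays, but at -1.97 and -1.40 in air replicates 1 and 2 of that line, so counts that use this air group are also given without both of those mice where they move. Notch4 probe set 1436901_at did not separate the lines (-0.23 to 0.16 in Notch4-/-, -0.31 to 0.25 in WT mice), and whether it lies in the deleted stretch was not checked.

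The proteasome breaks down proteins tagged with ubiquitin. Its core, the 20S particle, is a barrel of alpha rings (Psma genes) around beta rings (Psmb genes), in which Psmb5, Psmb6 and Psmb7 carry the active sites. Under interferon-gamma and in immune cells these are replaced by the inducible subunits Psmb8, Psmb9 and Psmb10 to form the immunoproteasome, which shapes the peptides shown on class I molecules. The 19S particle, with its ring of ATPases (Psmc genes) and its other base and lid subunits (most Psmd genes), binds, unfolds and feeds the substrate, and the activators Psme1, Psme3 and Psme4 open the core in its place. In oxidant stress and after loss of proteasome activity, the factors NRF2 and NRF1 raise proteasome genes through antioxidant response elements.

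By role, the 91 probe sets held 17 for the 7 common alpha genes, 8 for the 4 non-catalytic beta genes, 3 for the constitutive active site genes, 4 for the inducible ones, 12 for the 6 ATPases, 27 for 11 other 19S subunits, 5 for 3 assembly chaperones of the 19S base (Psmd5, Psmd9 and Psmd10) and 10 for 3 activators. There was 1 probe set each for Psma8, the alpha subunit of germ cells, and Psmb11, the active site subunit of the thymus, and 3 for the genes that are not subunits.

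The upstream sequences of 5 genes are shown because these genes are described below and their upstream bases hold a searched motif or, for Psmb9, adjoin Tap1; no test here ties a motif to a response. They are the 250 bases before each start site in the RefSeq annotation of build GRCm38.p6, read 5′ to 3′ on the strand of the gene, and entries were matched for 37 of the 44 genes. For Psmb5, Psmb6 and Psmd12, capitals mark the core of the antioxidant response element, TGACNNNGC, searched on both strands. For Psmb8, capitals mark the gamma-activated site, TTCNNNGAA, which reads the same on both strands. For Psmb9, capitals mark the 225 bases that also lie upstream of Tap1, the peptide transporter gene transcribed in the opposite direction.
Psmb5 (chr14:54617996-54618245, minus strand): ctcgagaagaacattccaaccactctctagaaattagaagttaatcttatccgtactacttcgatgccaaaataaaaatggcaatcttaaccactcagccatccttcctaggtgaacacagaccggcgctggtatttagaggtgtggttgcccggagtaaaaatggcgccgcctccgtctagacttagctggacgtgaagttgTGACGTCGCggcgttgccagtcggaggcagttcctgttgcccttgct
Psmb6 (chr11:70525107-70525356, plus strand): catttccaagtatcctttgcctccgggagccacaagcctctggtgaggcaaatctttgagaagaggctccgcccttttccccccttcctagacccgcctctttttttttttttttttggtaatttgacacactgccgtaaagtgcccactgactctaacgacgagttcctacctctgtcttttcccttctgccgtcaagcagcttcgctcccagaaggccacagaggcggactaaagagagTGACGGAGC
Psmd12 (chr11:107479278-107479527, plus strand): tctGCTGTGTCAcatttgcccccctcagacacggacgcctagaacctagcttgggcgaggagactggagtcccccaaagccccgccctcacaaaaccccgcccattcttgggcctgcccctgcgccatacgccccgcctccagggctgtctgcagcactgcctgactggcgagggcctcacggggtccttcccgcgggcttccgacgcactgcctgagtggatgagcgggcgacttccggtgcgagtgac
Psmb8 (chr17:34197945-34198194, plus strand): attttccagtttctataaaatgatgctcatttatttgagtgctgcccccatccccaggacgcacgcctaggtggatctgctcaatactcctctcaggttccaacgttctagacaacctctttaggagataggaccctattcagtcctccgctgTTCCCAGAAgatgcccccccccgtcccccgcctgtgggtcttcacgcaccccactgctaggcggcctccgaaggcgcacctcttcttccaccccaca
Psmb9 (chr17:34187331-34187580, minus strand): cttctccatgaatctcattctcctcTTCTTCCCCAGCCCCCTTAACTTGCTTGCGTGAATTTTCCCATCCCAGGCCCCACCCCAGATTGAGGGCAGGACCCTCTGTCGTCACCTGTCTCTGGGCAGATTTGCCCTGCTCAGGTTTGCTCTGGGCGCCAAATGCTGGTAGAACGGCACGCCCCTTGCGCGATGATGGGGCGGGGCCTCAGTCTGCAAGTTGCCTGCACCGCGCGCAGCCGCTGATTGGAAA
The antioxidant core was held by 5 of the 37 genes (13.5%): Psmb5, Psmb6, Psmc6, Psmd9 and Psmd12. The share was 11.5% of all 27025 genes with an entry. The gamma-activated site was held by 1 of the 37 (2.70%), Psmb8, against 8.13% of all genes. The core of the interferon-stimulated response element was held by Psmb3, Psmd4 and Psmd9 (8.11%), against 3.46% of all genes. A match in these windows is a description of the letters only.

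After 48 hr of ozone, proteasome probe sets rose in lungs averaged over the 3 genotypes, and none was called lower. Of the 91, 20 probe sets of 17 genes were higher than air and 0 were lower, which is 22.0% of the members where 10.7% of all probe sets were called in either direction and 6.72% were called higher. The median difference over the members was 0.13, against -0.01 over all probe sets, and 74 of the 91 lay above 0. Of the 91, 56 were above the air mean in all 3 genotypes (61.5%, against 21.3% of all probe sets), 1 was below it in all 3 (1.1%, against 23.5%) and 34 had mixed signs. The sizes were small, between -0.18 and 0.48.

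**Figure D1:**
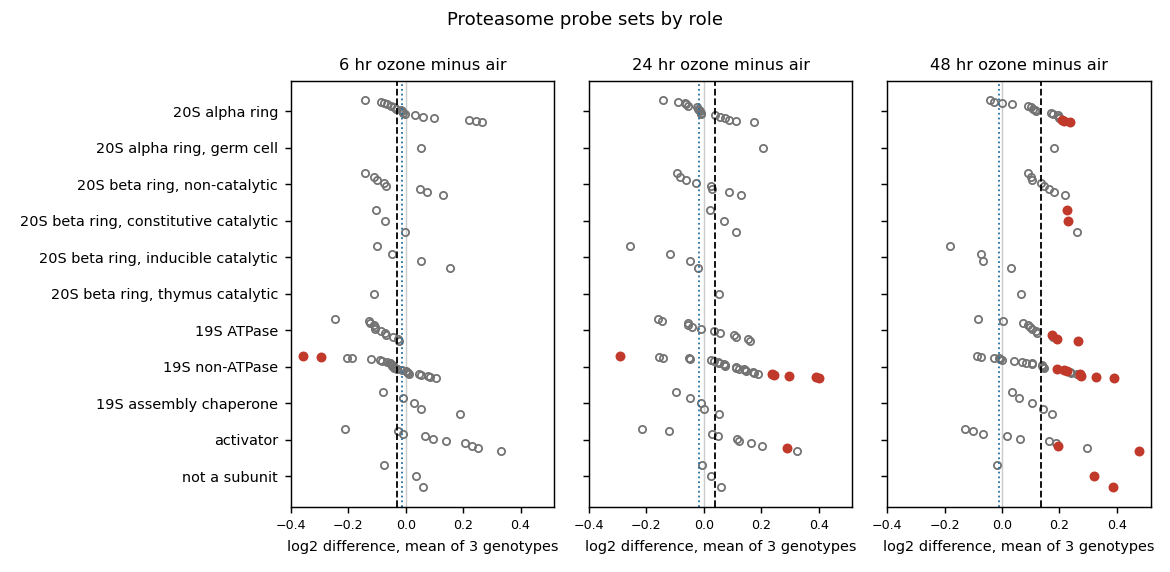
Log2 difference of ozone minus air, averaged over the 3 genotypes, for each of the 91 proteasome probe sets at 6, 24 and 48 hr, by role of the gene. Red points passed an adjusted p of 0.05, open points did not; the dashed line is the median of the members and the dotted line that of all probe sets. At 48 hr the dashed line stands at 0.13 and 20 points are red, all to the right of 0.

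Psme3 (probe set 1418079_at), the ring activator of the nucleus, led the response. In WT mice its levels in air were -0.53, -0.08 and 0.00 and at 48 hr 0.07, 0.24 and 0.13. In Notch3-/- mice they were -0.16, -0.14 and -0.13 in air and 0.39, 0.44 and 0.33 at 48 hr. In Notch4-/- mice they were -0.08, 0.08 and -0.15 in air and 0.59, 0.55 and 0.34 at 48 hr. In each genotype every 48-hr mouse lay above every air mouse. The mean rise was 0.48 (SE 0.06, adjusted p = 5.61e-06). It also passed in Notch3-/- mice alone (0.53, SE 0.11, adjusted p = 0.00603) and in Notch4-/- mice alone (0.54, SE 0.11, adjusted p = 0.0083), while in WT mice the difference of 0.35 did not (SE 0.11, adjusted p = 0.125). Neither knockout response differed from that of WT mice at 48 hr, with differences of 0.18 and 0.19 (SE 0.16 each) that did not pass. At 24 hr Psme3 was already higher by 0.29 (SE 0.06, adjusted p = 0.00718), and at 6 hr its Notch3-/- and Notch4-/- levels stayed between -0.22 and 0.00.

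Among the lid subunits of the 19S particle, Psmd14, which cuts ubiquitin from the substrate, rose by 0.39 (SE 0.08, adjusted p = 0.00149). Its 9 levels in air were -0.43, 0.01 and 0.03 in WT, -0.39, -0.15 and -0.08 in Notch3-/- and -0.08, -0.01 and 0.31 in Notch4-/- mice. At 48 hr they were 0.16, 0.26 and 0.47 in WT, 0.11, 0.20 and 0.25 in Notch3-/- and 0.37, 0.74 and 0.16 in Notch4-/- mice. The groups were separate in WT and Notch3-/- mice and overlapped in Notch4-/- mice. Psmd12, another lid subunit, rose by 0.27 (SE 0.06, adjusted p = 0.00331). It went from -0.39, 0.00 and -0.02 in WT air mice to 0.15, 0.12 and 0.22 at 48 hr, with levels of 0.23, 0.19 and 0.03 in Notch3-/- and 0.24, 0.32 and -0.06 in Notch4-/- mice. WT air replicate 1 stood low for all of these genes, at -0.53 for Psme3, -0.43 for Psmd14 and -0.39 for Psmd12.

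**Figure D2:**
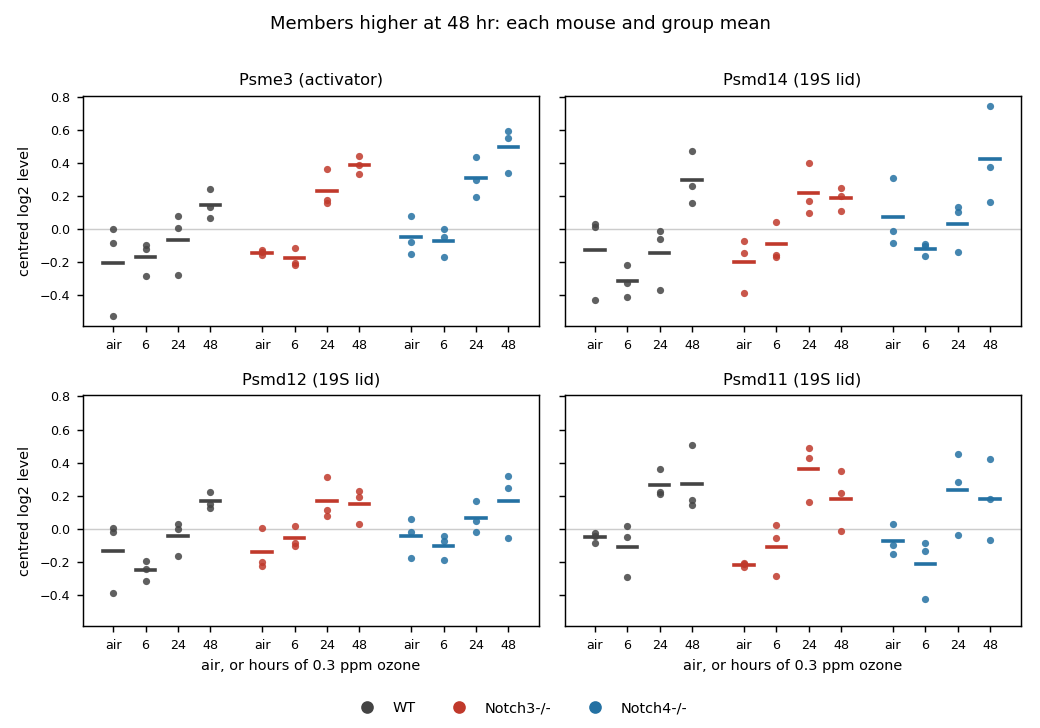
Centred log2 level of Psme3, Psmd14, Psmd12 and Psmd11 in each mouse, by genotype and exposure (air or hours of 0.3 ppm ozone). Points are mice and bars are means of 3 mice; the 48-hr means lie above the air means in every genotype, and WT air replicate 1 lies lowest of its group for Psme3, Psmd14 and Psmd12.

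The other 19S subunits that rose at 48 hr were the scaffold proteins Psmd1 and Psmd2, the lid subunits Psmd6, Psmd11 and Psmd13 and the ATPases Psmc2, Psmc3 and Psmc4, with differences between 0.18 and 0.33. Psmd1, Psmd6, Psmc2 and Psmc4 passed in all 18 fits that leave out 1 mouse. The calls for Psmc3, Psmd13 and Psmd2 are weak, since they passed in 6, 8 and 9 of these fits. The calls for Psmd6, Psmc2 and Psmc4 were lost without Notch4-/- air replicates 1 and 2 together. Those for Psmd1 and Psmc2 were lost with only the arrays compared in the fit. In all, 8 of 27 non-ATPase and 3 of 12 ATPase probe sets passed. In the core, 3 of 17 alpha probe sets (Psma2 and a pair for Psma5) passed and 0 of 8 non-catalytic beta probe sets did, although all 8 lay above 0, between 0.09 and 0.22.

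The constitutive active site genes had like differences at 48 hr, of which 2 of 3 passed. Psmb5 was higher by 0.23 (SE 0.07, adjusted p = 0.0395) and Psmb6 by 0.23 (SE 0.07, adjusted p = 0.0321). Psmb7 showed 0.26 (SE 0.09) and did not pass (adjusted p = 0.0626). The levels of Psmb5 in air were -0.38, 0.04 and 0.04 in WT, -0.21, -0.30 and -0.07 in Notch3-/- and -0.05, 0.07 and 0.26 in Notch4-/- mice. At 48 hr they were 0.02, 0.02 and 0.30, then 0.18, 0.15 and 0.00, then 0.26, 0.55 and -0.02. The groups overlapped in WT and in Notch4-/- mice. Both calls are weak: Psmb5 passed in 8 and Psmb6 in 9 of the 18 fits that leave out 1 mouse.

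Of the activators, Psme4 probe set 1426823_s_at rose by 0.20 (SE 0.06, adjusted p = 0.04), a call kept in 7 of the 18 fits without 1 mouse. Psme1, the interferon-inducible activator subunit, stood at 0.02 (SE 0.06, adjusted p = 0.915). Of the assembly chaperones 0 of 5 probe sets passed, with a median of 0.10. Psmc3ip, a recombination factor and not a proteasome subunit, passed with both of its probe sets, by 0.32 (SE 0.07, adjusted p = 0.00246) and 0.39 (SE 0.09, adjusted p = 0.00469). Psme3ip1 stood at -0.02.

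Probe sets of the same gene did not always move alike. At 48 hr, 10 genes with several probe sets had 1 or more called, and these were 13 of their 35 probe sets. Every probe set passed in 1 of the 10 genes, Psmc3ip, and every probe set lay above 0 in 4 of them. For Psme3 the other probe sets stood at 0.16 and -0.07, and for Psmd11 the 8 probe sets ranged from -0.03 to 0.33.

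Without Notch3-/- air replicate 1 the 48-hr count fell from 20 to 12, and without Notch4-/- air replicates 1 and 2 together it was also 12. Psme3, Psmd14, Psmd12, Psmd11 (1429370_a_at) and both Psmc3ip probe sets passed in all 8 other settings and all 18 fits without 1 mouse. Beside the rise at 48 hr, 8 of 9 markers of cycling cells were higher (median 1.60), 5 of 9 macrophage markers were higher (median 0.34) and 3 of 6 endothelial markers were lower (median -0.34). The mean of the cycling cell markers lay between 0.93 and 1.69 in all 9 mice at 48 hr and between -0.98 and 0.96 in all 9 in air, so that the groups nearly separated. Of 9 neutrophil markers 2 were higher, Lcn2 (1.53) and Mmp8 (0.68), with a list median of -0.07. Of 6 T cell markers 1, Cd8a, was lower (-0.25). Of 7 epithelial, 8 skeletal muscle, 5 B cell and 5 natural killer cell markers 0 passed. The part of any of these cells in the result was not tested.

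At 6 hr no member was higher over the 3 genotypes and 2 were lower, where 2.9% of all probe sets were called and 2.08% were lower. These were a probe set of the ubiquitin receptor Psmd4 (1451725_a_at, -0.29, SE 0.08, adjusted p = 0.0336) and 1 of 4 for Psmd13 (1447843_at, -0.36, SE 0.10, adjusted p = 0.0404). The other probe sets of Psmd4 stood at -0.04 and -0.12. The count at 6 hr was 0 or 1 without any 1 of 12 mice, air replicates 2 and 3 and 6-hr replicate 1 of WT, all 3 air mice and 6-hr replicates 1 and 3 of Notch3-/-, and air replicates 2 and 3 and 6-hr replicates 2 and 3 of Notch4-/-, and it was 0 without Notch4-/- air replicates 1 and 2 together.

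At 24 hr, 6 member probe sets were higher and 1 was lower (7.69% called, against 5.29% of all probe sets, of which 3.19% were higher and 2.1% lower), with a median of 0.04. Psmd11 led with 3 of its 8 probe sets, the largest at 0.40 (1429370_a_at, SE 0.08, adjusted p = 0.00216). Its WT levels were -0.03, -0.09 and -0.05 in air and 0.21, 0.22 and 0.36 at 24 hr, with no overlap. Psmd1 rose by 0.29 (SE 0.06, adjusted p = 0.00466), Psme3 as given above and Psmd7 by 0.39 (SE 0.11, adjusted p = 0.0274). Psmd4 probe set 1451725_a_at was lower (-0.29, SE 0.08, adjusted p = 0.0229), against the same air mice as at 6 hr. Of the 3 probe sets of Psmd4, 2 lay above 0 at 24 hr, the highest at 0.05. Without Notch3-/- 24-hr replicate 1 the count was 4. Between 24 and 48 hr 5 probe sets were called higher and 0 lower (5.49%, against 6.71% of all called and 3.69% called higher). They were a pair for Psmc3ip and 1 each for Psma2, Psma5 and Psmd14. None of these was called at 24 hr against air over the 3 genotypes, although Psmc3ip (1425271_at) was called in Notch3-/- mice alone. That count was 1 to 3 without any 1 of 9 mice (24-hr replicate 1 and 48-hr replicate 3 of WT, 24-hr replicates 1 and 2 and 48-hr replicates 2 and 3 of Notch3-/-, and 24-hr replicate 3 and 48-hr replicates 1 and 2 of Notch4-/-), and 11 without 48-hr replicate 3 of Notch4-/-.

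Within single genotypes, most calls were made in Notch3-/- mice at 24 hr. There, 8 of their 91 probe sets, of 8 genes, were higher than air and 0 lower (8.79%, against 2.72% of all probe sets called and 1.38% called higher), and the median was 0.22 against -0.05 over all. The same air mice enter each time of a genotype. In WT mice 0 passed by limma, with 8 at an unadjusted p under 0.05 (8.79%, against 9.71% of all probe sets) and a median of -0.05, and 0.104% of all were called after adjustment. In Notch4-/- mice 0 passed, with 13 at an unadjusted p under 0.05 (14.3%, against 17.4% of all) and a median of -0.03, and 1.39% of all were called after adjustment; 2 passed without air replicate 2 and 7, of which 3 were lower, without air replicates 1 and 2. By the methods' ANOVA with Tukey's test 0 passed in each genotype. All 3 Notch3-/- mice at 24 hr lay above all 3 in air for 39 of the 91 probe sets (42.9%), where the share was 12% of all probe sets. In WT mice this held for 11 (12.1%, against 8.36% of all) and in Notch4-/- mice for 12 (13.2%, against 12.6%). All 3 mice at 24 hr lay below all 3 in air for 2 members in Notch3-/- mice (2.2%, against 15.2% of all), 13 in WT mice (14.3%, against 11.4%) and 7 in Notch4-/- mice (7.69%, against 7.74%).

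Psmd7, a lid subunit, had the largest difference of any member in Notch3-/- mice at 24 hr. Its levels (1451056_at) were -0.59, -0.59 and -0.31 in air, -0.10, -0.10 and 0.10 at 6 hr, 0.52, 0.50 and 0.59 at 24 hr and 0.05, 0.01 and -0.30 at 48 hr. The 24-hr mice stood above all others of the line, and the 3 air mice were the lowest, the highest of them close to 48-hr replicate 3. The rise at 24 hr was 1.03 (SE 0.18, adjusted p = 0.00191). In WT mice levels at 24 hr were 0.19, 0.37 and 0.14 against 0.05, -0.32 and 0.05 in air, a difference of 0.30 (SE 0.18, adjusted p = 0.573), and in Notch4-/- mice -0.41, -0.13 and 0.32 against 0.09, -0.01 and 0.19. The other probe sets of Psmd7 showed smaller differences, the lowest 0.00.

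Psma4, an alpha subunit, was the other member called in every fit without 1 mouse. In Notch3-/- mice its levels were -0.32, -0.51 and -0.13 in air and 0.31, 0.23 and 0.38 at 24 hr, a rise of 0.63 (SE 0.12, adjusted p = 0.00472). The groups did not overlap. In WT mice they were 0.02, -0.13 and -0.01 in air and 0.01, 0.10 and -0.04 at 24 hr. In Notch4-/- mice they were 0.09, 0.03 and 0.39 in air and -0.15, -0.02 and 0.19 at 24 hr, with a lower mean at 24 hr. Other cells' markers moved in the same contrast: of 9 macrophage markers 2 were higher, Marco (0.79) and Mrc1 (0.59), and of 9 neutrophil markers 1, Lcn2 (1.42). The mean of the neutrophil markers ran from -0.14 to 0.40 in air and from 0.59 to 0.84 at 24 hr, and that of the macrophage markers from -0.08 to 0.03 and from 0.09 to 0.23. Of 8 skeletal muscle markers 0 passed, but their median difference was -1.28, with a mean that ran from -0.02 to 3.07 in the 3 air mice and from -0.18 to 0.09 at 24 hr. Their part in the rise was not tested. These calls for Psmd7 and Psma4 were kept without any 1 mouse and lost only under the ANOVA with Tukey's test.

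**Figure D3:**
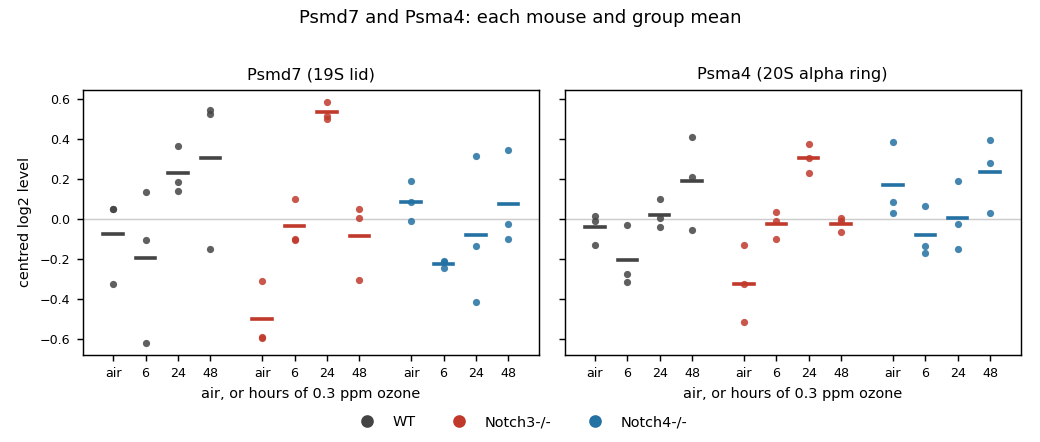
Centred log2 level of Psmd7 (1451056_at) and Psma4 in each mouse, by genotype and exposure (air or hours of 0.3 ppm ozone). Points are mice and bars are means of 3 mice; in Notch3-/- mice the 24-hr values (0.50 to 0.59 and 0.23 to 0.38) lie above all air values.

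The other 6 genes called in Notch3-/- mice at 24 hr were Psma7, Psmc2, Psmc4, Psmd1, Psmd11 and Psmc3ip, with differences from 0.33 to 0.65. Of the 6 fits without 1 of the mice compared, Psmc2 and Psmd1 passed in 0, Psma7 and Psmc4 in 1 and Psmd11 and Psmc3ip in 2. The count of 8 fell to between 2 and 5 without any 1 of these mice. It was 2 without air replicate 1 or 24-hr replicate 1 and 3 without 24-hr replicate 2 or 3. It was 4 without air replicate 3 and 5 without air replicate 2. By role, all 3 constitutive active site probe sets were at 0.29 to 0.41 and 16 of 17 alpha probe sets were above 0 (median 0.26), but 1 alpha gene beside Psma4, Psma7, passed. At 48 hr 2 members passed in Notch3-/- mice (2.20%, against 2.46% of all called and 1.93% called higher), Psme3 and Psmc3ip, 1 in Notch4-/- mice (1.10%, against 1.75% called and 1.48% called higher), Psme3, which was lost without air replicate 3 or 48-hr replicate 1, and 0 in WT mice by limma or by ANOVA with Tukey's test, where 20 were at an unadjusted p under 0.05 (22.0%, against 10.5% of all) and 1.89% of all were called. At 6 hr 0 passed in any genotype, with 14, 12 and 4 at an unadjusted p under 0.05 in WT, Notch3-/- and Notch4-/- mice. These are 15.4%, 13.2% and 4.4% of the members, against 8.16%, 12.1% and 10.5% of all probe sets at the same threshold, and after adjustment 0%, 0.16% and 0.00666% of all were called.

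The difference between the Notch3-/- and WT responses passed for none of the 91 members at any time by limma. With array weights 3 passed at 24 hr. At 24 hr, 27 of 91 (29.7%) had an unadjusted p under 0.05, where 10.2% of all probe sets did and 0.00444% were called, and the median difference was 0.27. For Psmd7 the Notch3-/- response was larger by 0.73 (SE 0.26, adjusted p = 0.431) and for Psma4 by 0.56 (SE 0.17, adjusted p = 0.428). At 6 hr 18 had an unadjusted p under 0.05 (19.8%, against 4.86% of all probe sets, with 0.00888% of all called after adjustment). At 48 hr 2 did (2.2%, against 2.89% of all, with 0.00222% of all called). Between Notch4-/- and WT responses 0 members were called by limma and 1 had an unadjusted p under 0.05 at each time (1.1%, against 3.09%, 5.25% and 3.29% of all at 6, 24 and 48 hr); after adjustment 0% of all were called at 6 and 24 hr and 0.00222% at 48 hr. WT air replicate 1, low for many members, enters each of these: without it the 24-hr median was 0.36.

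At 24 hr in Notch3-/- mice, 6 of 12 antioxidant targets of NRF2 were also higher (median 0.75), with Gclc, the catalytic subunit of glutathione synthesis, at 1.79 (SE 0.22, adjusted p = 1.87e-05), Gpx2 at 1.36 and Hmox1 at 0.69. Of 8 genes that control proteasome transcription 1 passed there, the small partner protein Maff at 0.71 (adjusted p = 0.0149). Over the 3 genotypes 3 of the 8 were higher at 24 hr, Maff (0.60), Nfe2l2, which encodes NRF2 (0.25), and Mafk (0.23), and 1 at 48 hr. Of the antioxidant targets 5 of 12 were higher at 24 hr and 4 of 12 at 48 hr.

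Other parts of the pathway moved in part at 48 hr over the 3 genotypes. Of 13 receptors, deubiquitinases and shuttle factors that dock at the proteasome 4 were higher, among them the deubiquitinases Uchl5 (0.30, SE 0.05, adjusted p = 5.08e-05) and Usp14 (0.34, SE 0.08, adjusted p = 0.00335) and the thioredoxin-like subunit partner Txnl1 (0.26). Of 6 assembly factors 1, Psmg1, was higher (0.28, SE 0.06, adjusted p = 0.00313). Of 6 genes for ubiquitin, its activating enzymes and the p97 complex 0 passed at 48 hr, although Uba6 (0.31) and Vcp (0.38) were higher at 24 hr. No gene of these 3 lists was called lower at 48 hr, and the list medians, in the same order, were -0.005, 0.13 and 0.10.

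None of the 4 probe sets of the inducible active site subunits passed over the 3 genotypes at any time. Their 48-hr median was -0.07, where that of the constitutive active site genes was 0.23, and the difference between these sets was not tested. By genotype the inducible median at 48 hr was -0.18 in WT, 0.10 in Notch3-/- and -0.10 in Notch4-/- mice. Over the 4 exposures, 5 member probe sets were higher in Notch3-/- than in WT mice and 0 lower (5.49%, against 5.68% of all probe sets called and 3.28% called higher), and 4 of the 5 were the inducible subunits, the fifth being a probe set of Psmd6. The share is near the background and is no result about the members as a set.

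Averaged over the exposures, Psmb9 was higher in both lines than in WT mice. Its WT levels were 0.18, 0.03 and -0.18 in air, -0.15, -0.53 and -0.16 at 6 hr, -0.50, -0.42 and -0.36 at 24 hr and -0.65, -0.51 and 0.06 at 48 hr. In Notch3-/- mice they were -0.01, -0.13 and 0.36 in air, 0.43, 0.86 and 0.80 at 6 hr, -0.20, 0.02 and 0.58 at 24 hr and 0.19, 0.38 and 0.01 at 48 hr. In Notch4-/- mice they were 0.08, -0.05 and 0.57 in air, 0.24, 0.37 and 0.38 at 6 hr, -0.16, -0.36 and -0.07 at 24 hr and -0.13, 0.29 and -0.40 at 48 hr. In air the genotypes overlapped, at 6 hr the knockout mice of both lines stood above all WT mice, and WT mice at 24 hr were below all their air mice. Over the 4 exposures the Notch3-/- mean exceeded that of WT by 0.54 (SE 0.10, adjusted p = 0.000616) and the Notch4-/- mean by 0.33 (SE 0.10, adjusted p = 0.049).

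Psmb8 was higher as well. Its main probe set, 1422962_a_at, was higher by 0.44 in Notch3-/- mice (SE 0.08, adjusted p = 0.000557) and by 0.28 in Notch4-/- mice (SE 0.08, adjusted p = 0.033). At 6 hr its levels were -0.26, -0.61 and -0.30 in WT, 0.14, 0.54 and 0.52 in Notch3-/- and 0.06, 0.16 and 0.31 in Notch4-/- mice, so that both lines were above WT without overlap. The second probe set, 1444619_x_at, gave 0.20 in Notch3-/- mice (SE 0.05, adjusted p = 0.014) and 0.06 in Notch4-/- mice (adjusted p = 0.585). Its 6-hr levels were -0.31, -0.09 and -0.02 in WT and -0.29, -0.06 and 0.00 in Notch4-/- mice, which overlapped. In Notch3-/- mice they were 0.27, 0.25 and 0.05, all above WT. Psmb10 was higher by 0.23 in Notch3-/- mice (SE 0.05, adjusted p = 0.00769), and its 0.17 in Notch4-/- mice did not pass (SE 0.05, adjusted p = 0.0641). Its 3 WT air levels, 0.04, 0.01 and 0.00, were above all 9 WT levels in ozone, which ran from -0.38 to just under the lowest air level.

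**Figure D4:**
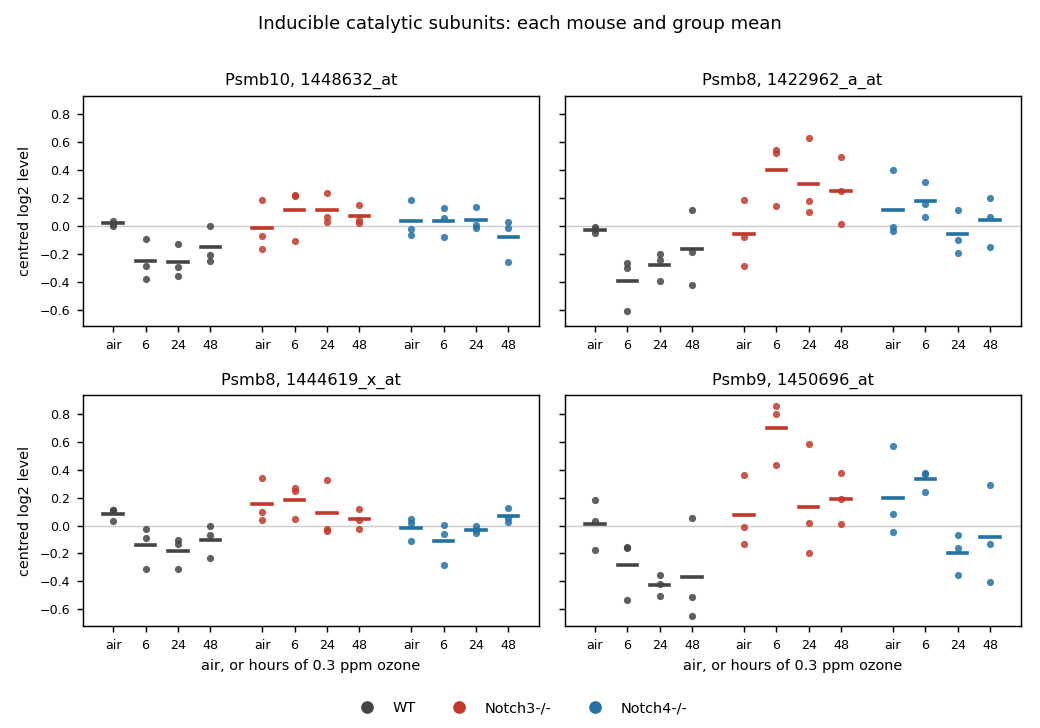
Centred log2 level of Psmb9, Psmb10 and both probe sets of Psmb8 in each mouse, by genotype and exposure (air or hours of 0.3 ppm ozone). Points are mice and bars are means of 3 mice; at 6 hr the Notch3-/- values of Psmb9 (0.43 to 0.86) lie above the WT values (-0.53 to -0.15), and in air the genotypes overlap.

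In air alone 0 members differed from WT in either line by limma or by ANOVA with Tukey's test, with 6 in Notch3-/- and 4 in Notch4-/- mice at an unadjusted p under 0.05 (6.59% and 4.4%, against 7.22% and 7.4% of all probe sets). After adjustment 0.486% and 0.482% of all were called. The member median in air was -0.09 in Notch3-/- mice (0.01 over all probe sets) and 0.05 in Notch4-/- mice (-0.02 over all). Above 0 lay 22 of 91 members in Notch3-/- mice (24.2%, against 52.9% of all) and 63 in Notch4-/- mice (69.2%, against 44.7%). These air mice are the reference for the ozone differences of their line. Psmb9 differed in air by 0.06 and 0.19 (SE 0.20 each). For Psmb8 (1422962_a_at) and Psmb9, the change of the gap to WT mice between air and ozone was widest at 6 hr in Notch3-/- mice. There the responses of these 2 probe sets exceeded those of WT mice by 0.83 (SE 0.23) and 0.92 (SE 0.28). The unadjusted p by limma was 0.00117 and 0.00318, and the adjusted p was 0.922 for each. The lines did not differ from each other in any member by limma (0 called, where 1.09% of all were, with 5 or 5.49% at an unadjusted p under 0.05, against 9.92% of all), and for Psmb9 Notch4-/- mice were lower than Notch3-/- mice by 0.21 (SE 0.10, adjusted p = 0.489).

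The 4 inducible calls in Notch3-/- mice were kept without any 1 of 24 mice and under all other settings run for them. In Notch4-/- mice Psmb9 was kept in 6 and Psmb8 in 16 of 24 such fits. The Notch4-/- count of 5 higher and 0 lower members (5.49%, against 5.76% of all called and 2.87% called higher) was 2 or 3 without any 1 of 11 mice, air replicates 2 and 3, 6-hr replicate 2, 24-hr replicate 1 and 48-hr replicates 1 and 2 of WT and air replicate 3, 6-hr replicate 3, 24-hr replicates 1 and 3 and 48-hr replicate 2 of Notch4-/-. Beside Psmb8 and Psmb9 it held 1 of 3 probe sets of Psme3 (1418079_at, 0.24, SE 0.06, adjusted p = 0.00662). It also held 1 of 2 for Psmc3ip (1425271_at, 0.28, SE 0.06, adjusted p = 0.00406) and 1 of 2 for Psmd6 (1423696_a_at, 0.27, SE 0.08, adjusted p = 0.0302). The called probe sets of Psme3 and Psmc3ip were kept in all alternatives. Other probe sets of these genes did not pass. Cycling cell markers were higher there too, 4 of 9 (median 0.46).

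Genes that work with the immunoproteasome were higher in the same mice. Of 14 genes of class I antigen processing and interferon-gamma control, 8 were higher in Notch3-/- and 5 in Notch4-/- mice than in WT, and 0 were lower. The class I transactivator Nlrc5 stood at 1.37 (SE 0.12, adjusted p = 7.2e-09) and 1.01 (SE 0.12, adjusted p = 2.01e-06), and the interferon-induced GTPases Igtp and Gbp2 at 1.16 and 0.61 in Notch3-/- and 0.52 and 0.28 in Notch4-/- mice. Tap1, named here after its values were seen because it shares the upstream bases of Psmb9 printed above, was higher by 0.55 (SE 0.08, adjusted p = 4.2e-05) and 0.28 (SE 0.08, adjusted p = 0.0384). Interferon-gamma itself, Ifng, was at 0.15 (adjusted p = 0.153) and 0.04 (adjusted p = 0.779).

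Several measures moved with these calls. Of 9 neutrophil markers 7 were higher in each line (medians 0.96 and 0.58), and of 5 natural killer cell markers 1, the receptor chain Klrd1, was higher in each (0.60 and 0.63). Of 6 endothelial markers 2, Tek and Tie1, were lower in each line (list medians -0.29 and -0.28), and of 7 epithelial markers 1, Ager, was lower in each (-0.27 and -0.29). Of 9 macrophage markers 2 were higher and 1 lower in Notch3-/- mice and 0 passed in Notch4-/- mice. Of 6 T cell markers (medians 0.06 in Notch3-/- and -0.05 in Notch4-/- mice) and 5 B cell markers (0.22 and 0.40) 0 passed in either line. The mean of the neutrophil markers ran from -0.79 to 0.03 in the 12 WT mice, from -0.14 to 1.33 in Notch3-/- and from -0.27 to 0.68 in Notch4-/- mice. Their part in the result was not tested. Psmb8 and Psmb9 lie on chromosome 17 with 1 measured gene between them, and 9 and 11 measured genes separate them from Notch4, 62 separate Psmb9 from Notch3, and the chromosome holds 834 measured genes. An effect of either deletion and one of strain sequence linked to it cannot be told apart.

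Within groups the members moved together to different degrees. After the group means were taken out, the median Pearson correlation over the 36 mice was 0.26 for 2139 pairs of constitutive core and 19S probe sets of different genes, 0.83 for 5 pairs of inducible probe sets and 0.36 for 268 pairs across these sets. Between core or 19S probe sets and all probe sets it was 0.00. All pairs share the same arrays, and these correlations are a description.

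**Figure D5:**
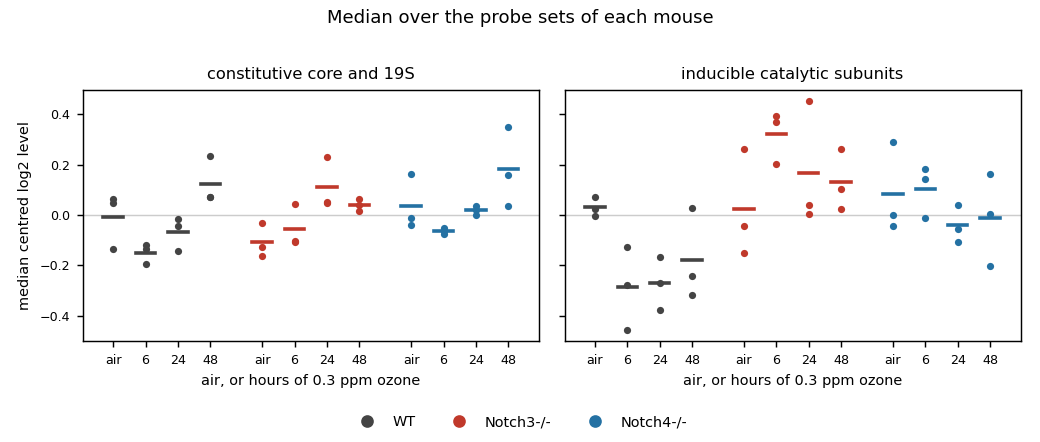
Median centred log2 level of the probe sets of the constitutive core and 19S particle (left) and of the inducible catalytic subunits (right) in each mouse, by genotype and exposure. Points are mice and bars are means of 3 mice; on the left the 48-hr means are 0.13, 0.04 and 0.18 in WT, Notch3-/- and Notch4-/- mice, and on the right the WT ozone means are -0.29, -0.27 and -0.18.

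The median of the 67 constitutive core and 19S probe sets in each mouse was also taken. In WT mice it was -0.14, 0.06 and 0.05 in air, fell within -0.19 to -0.12 at 6 hr and within 0.07 to 0.23 at 48 hr. In Notch3-/- mice it was -0.16, -0.13 and -0.03 in air and 0.05, 0.05 and 0.23 at 24 hr. In Notch4-/- mice it was -0.04, -0.01 and 0.16 in air and 0.16, 0.35 and 0.03 at 48 hr, and these overlapped. The median of the inducible subunits in WT mice was 0.00 to 0.07 in air and -0.46 to -0.13 at 6 hr. In Notch3-/- mice it was -0.04, -0.15 and 0.26 in air and 0.20 to 0.39 at 6 hr, and these overlapped.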

How the data were processed

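RNA of the left lung was measured on Affymetrix whole-genome mouse arrays in 36 mice, 1 an array, in 12 groups of 3 taken from the sample labels. The authors deposited log2 expression values made by robust multi-array averaging (RMA), per the study's methods and the labels. The deposited values have a median of 0 over the 36 arrays for each probe set, so brightness and detection cannot be read. Groups of 3 limit the precision, and the arrays also differed in spread, with an SD over the probe sets from 0.16 to 0.43. Array medians ran from -0.03 to 0.03.

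From these values, 45037 probe sets (64 controls left out, no filter on level) were fitted with limma 3.58.1 in R 4.3.3 as 12 group means with empirical Bayes variances. Each contrast was adjusted by Benjamini-Hochberg over all probe sets, with a threshold of 0.05. Tables and sequence searches used Python 3.11.15 and pandas 2.3.3, and the fit was tested on simulated data. Gene names come from GEO's platform annotation, in which all 91 members matched a RefSeq gene. Named members were the catalytic and inducible subunits, the activators, up to 4 genes with the smallest p in each direction of a comparison, and members that are not subunits, with up to 3 genes of each pathway list; probe sets past the threshold are named in place of the one standing for their gene, and the other called members are named so that each count can be read. The members and lists were chosen with earlier results of these data known. Alternatives were each array centred on its median, quantile normalization, array weights, ANOVA with Tukey's test, only the arrays compared, the replicate number as a block, single-symbol probe sets, joint adjustment, probe sets averaged by gene, and each mouse left out. Nothing labels the mice of different groups as paired.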

Additional observations from a re-analysis of the deposited data

How the results depend on the processing

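Over the 55 calls of a member in a comparison, 1349 alternatives kept the call in 1050 and lost it in 299, with 0 changes of sign. Numbers of members called are given below where they moved by over 1.5 times, and the cause was not tested. Centring each array gave 1 in Notch4-/- mice at 24 hr, as did testing single-symbol probe sets only. Quantile normalization gave 1 in WT mice at 48 hr, 19 in Notch3-/- mice at 24 hr, 1 and 0 in Notch4-/- mice at 24 and 48 hr and 11 over the genotypes at 24 hr. Array weights gave 2 in WT mice at 48 hr, 25 and 21 in Notch3-/- mice at 24 and 48 hr, 4, 4 and 5 in Notch4-/- mice at 6, 24 and 48 hr, 4, 17 and 33 over the genotypes at 6, 24 and 48 hr, 9 between 48 and 24 hr, 3 for Notch4-/- against WT in air and 3 for the Notch3-/- response at 24 hr. ANOVA with Tukey's test gave 0 in Notch3-/- mice at 24 and 48 hr and in Notch4-/- mice at 48 hr. With only the arrays compared, the numbers were 5 and 1 in Notch3-/- mice at 24 and 48 hr, 0 in Notch4-/- mice at 48 hr, 0 and 9 over the genotypes at 6 and 48 hr and 1 between 48 and 24 hr. Joint adjustment gave 3 in Notch3-/- mice at 24 hr and 2 for Notch4-/- against WT. Averaging by gene gave 5 and 1 in Notch3-/- mice at 24 and 48 hr, 1 and 0 in Notch4-/- mice at 24 and 48 hr, 1 and 4 over the genotypes at 6 and 24 hr, 3 between 48 and 24 hr and 3 for Notch3-/- against WT, where fewer features were counted. Leaving out Notch4-/- air replicates 1 and 2, an alternative chosen after seeing the data, gave 7 in Notch4-/- mice at 24 hr and 0 and 12 over the genotypes at 6 and 48 hr.

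Without 1 mouse at a time, the number ranged from 2 to 5 in Notch3-/- mice at 24 hr, 0 to 2 and 0 to 1 in Notch4-/- mice at 24 and 48 hr, 0 to 3, 4 to 9 and 12 to 27 over the genotypes at 6, 24 and 48 hr, 1 to 11 between 48 and 24 hr and 2 to 7 for Notch4-/- against WT. The replicate block gave 1 in Notch4-/- mice at 24 hr and 10 in Notch3-/- mice at 24 hr. Same-numbered mice of different groups had a median correlation of 0.07 (-0.51 to 0.62). Mice of different groups and different numbers had -0.05 (-0.61 to 0.50). These wide ranges cannot tell whether the numbers mark a shared batch.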
